A study of Mus musculus with 36 samples.

Results

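Genes of neuronal differentiation and of young dentate granule cells were followed in the hippocampus of mice without Braf in forebrain neurons. The set comprised 10 genes: the bHLH factors Neurod1, Neurod2 and Neurod6, the SoxC factors Sox11 and Sox4, the T-box factor Eomes, the cytoskeletal genes Dcx, Dpysl3 and Tubb3, and Igfbpl1. Its members were all probes of the array whose platform gene symbol was one of these names. This gave 19 of the 46632 probes, for 9 of the 10 genes, because no probe carried the symbol Sox4. Of the 9 genes, Dcx and Sox11 had 4 probes each, Eomes and Igfbpl1 had 3 each, and the others had 1 each.

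The knockout mice were 5 male Braf-cko animals, which carried the floxed Braf gene on both chromosomes together with a Cre transgene under the CamkIIa promoter, against 6 male Braf-flox littermates, which were homozygous for the floxed gene without Cre. All 11 were 4 months old and of a mixed background with 93.7% C57BL/6J, 6.2% FVB and 0.1% 129/Sv. A second pair of groups addressed the transgene itself, with 6 male CamkII-Cre mice against 6 male CamkII-wt littermates, 6 months old, on C57BL/6J and with unmodified Braf. The transgene is active in principal forebrain neurons, so glia and most interneurons of a Braf-cko mouse keep the gene, and alleles beside the transgene on its chromosome travel with it in both experiments. Whole-hippocampus RNA was hybridized to Illumina MouseWG-6 v1.1 BeadChips, with 36 arrays for the 23 animals: 2 for each CamkII-Cre and CamkII-wt mouse and for Braf-cko mouse 1, and 1 for any other mouse.

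Values are log2 of the deposited normalized intensity, with the arrays of an animal averaged. The median linear intensity of an array was 51.8 to 53.3 for Braf-cko and Braf-flox mice and 64.98 to 70.2 for CamkII-Cre and CamkII-wt mice, so levels can be set against each other within an experiment but not between the 2. Precision is limited by how many animals there were in each group. Markers of hippocampal neurons were bright in every animal (Slc17a7, the vesicular glutamate transporter of excitatory neurons, at 11.35 to 12.79, and Prox1, the granule cell factor, at 8.60 to 9.55). The array's Braf probe lay below the filter on dim probes in the Braf experiment, at 5.37 to 5.66 in Braf-cko and 5.45 to 5.76 in Braf-flox mice, and its place relative to the deleted exon is not given in the sources used here, so it checks nothing about the genotypes. Because the tissue is whole, fewer cells of a type and less RNA per cell cannot be told apart.

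New granule neurons arise throughout life in the dentate gyrus. Radial glia-like stem cells give rise to Eomes-expressing intermediate progenitors, whose daughters switch on Neurod1, Sox4 and Sox11, then the microtubule-binding protein doublecortin (Dcx), and lose these as they mature. Neurod2 and Neurod6 act later and are kept by mature excitatory neurons of the forebrain, where Neurod2 serves synapse formation and excitability. The NeuroD proteins bind E-boxes (CANNTG) as dimers with the E proteins Tcf3, Tcf4 and Tcf12.

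Promoter windows, which run from 250 bases before to 50 bases after a gene's start, were taken from RefSeq on GRCm38.p6 and were matched by symbol for 8 of the 10 genes, with 9 windows. The windows of Neurod2 and Sox11 are shown because these genes had the highest changes among the members. The Neurod2 window is at chr11:98329596-98329895 and the Sox11 window at chr12:27342669-27342968, both on the minus strand and written 5′ to 3′ along the gene. Capitals mark E-boxes and, in Neurod2, the letters TGACG of the cAMP response element.
Neurod2: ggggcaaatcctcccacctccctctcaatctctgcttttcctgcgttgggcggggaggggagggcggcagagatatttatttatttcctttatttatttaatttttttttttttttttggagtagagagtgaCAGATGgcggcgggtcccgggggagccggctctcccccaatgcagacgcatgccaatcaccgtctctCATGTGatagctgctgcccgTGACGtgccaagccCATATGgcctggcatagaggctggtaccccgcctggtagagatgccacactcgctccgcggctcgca
Sox11: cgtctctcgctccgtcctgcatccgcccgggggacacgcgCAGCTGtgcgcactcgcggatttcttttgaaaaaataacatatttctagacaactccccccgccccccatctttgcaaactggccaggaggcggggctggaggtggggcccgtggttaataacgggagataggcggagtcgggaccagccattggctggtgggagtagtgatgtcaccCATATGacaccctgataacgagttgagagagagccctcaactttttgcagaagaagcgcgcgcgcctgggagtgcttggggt

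E-boxes were searched on both strands, with CAGATG and CAGCTG as forms of CANNTG, and TGACG as a part of the full element TGACGTCA. The Neurod2 window held 3 E-boxes, at -118 to -113 (CAGATG), -51 to -46 (CATGTG) and -17 to -12 (CATATG) relative to the start, and TGACG at -31 to -27. The Sox11 window held 2 E-boxes, at -210 to -205 (CAGCTG) and -32 to -27 (CATATG), and the Sox4 window held CAGCTG at -211 to -206. Of the 9 member windows, 5 had an E-box, against 72.3% of all 32851 windows of the table. CAGATG stood in 1 of the 9 and in 17.2% of all windows, CAGCTG in 2 and in 16.3%, and TGACG in 1 and in 20.8%. TGACGTCA and the ETS core CCGGAAG stood in 0 of the 9, and in 1.79% and 8.86% of all windows. These letters describe the windows and were not tied to any binding measurement.

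Neurod2 was the member that passed the test in the Braf comparison, and it was higher in Braf-cko mice. Its probe (ILMN_2771433) read 10.98, 10.89, 11.18, 11.19 and 10.93 on the log2 scale in Braf-cko mice 1 to 5. In Braf-flox mice it read 10.38 at the lowest, 10.53 at the median and 10.75 at the highest. The groups did not overlap. The mean was 11.03 ± 0.14 in Braf-cko mice (SD, n = 5) and 10.56 ± 0.15 in Braf-flox mice (SD, n = 6), a log2 change of 0.47 (standard error 0.09, 95% interval 0.28 to 0.66), which is 1.39-fold on the linear scale (adjusted p = 0.0251, limma with Benjamini-Hochberg adjustment over 23316 probes). Because the groups did not overlap, all 5 Braf-cko mice lay above the control mean. For the same reason the exact permutation test gave p = 0.00216 (two-sided), the smallest these group sizes allow. Braf-cko mouse 1 read 11.06 and 10.90 on its 2 arrays. With the methods' t-test in place of limma the adjusted p was 0.113 and the call was lost. Leaving out single animals kept the change between 0.43 and 0.51, but the adjusted p stayed below the threshold in 5 of 11 such fits and ran up to 0.0815, without Braf-cko mouse 4. The call was lost without Braf-cko mouse 1, 3 or 4 and without Braf-flox mouse 1, 2 or 6 (adjusted p = 0.0639, 0.0746, 0.0815, 0.0534, 0.0524 and 0.0548, in this order).

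In CamkII-Cre mice, which carry the transgene with intact Braf, Neurod2 did not pass the test. It read 11.24, 11.43 and 11.60 at the lowest, the median and the highest in CamkII-Cre mice, and 11.31, 11.56 and 11.68 in CamkII-wt mice, and the groups overlapped over most of their range. The means were 11.44 ± 0.13 and 11.54 ± 0.13 (SD, n = 6 each), a log2 change of -0.10 (95% interval -0.26 to 0.06, adjusted p = 1.00, limma). The change was -0.10 on the first set of technical arrays and -0.10 on the second. The Braf-cko change exceeded the CamkII-Cre change by 0.57 (standard error 0.12, 95% interval 0.34 to 0.81, adjusted p = 0.0289 in limma's fit of all 23 animals). With single animals left out it stayed between 0.53 and 0.62, and its adjusted p was below the threshold in 12 of 23 fits (0.0157 to 0.0709). Age, genetic background and the array medians differ between the 2 experiments and cannot be told apart from this difference.

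**Figure D1:**
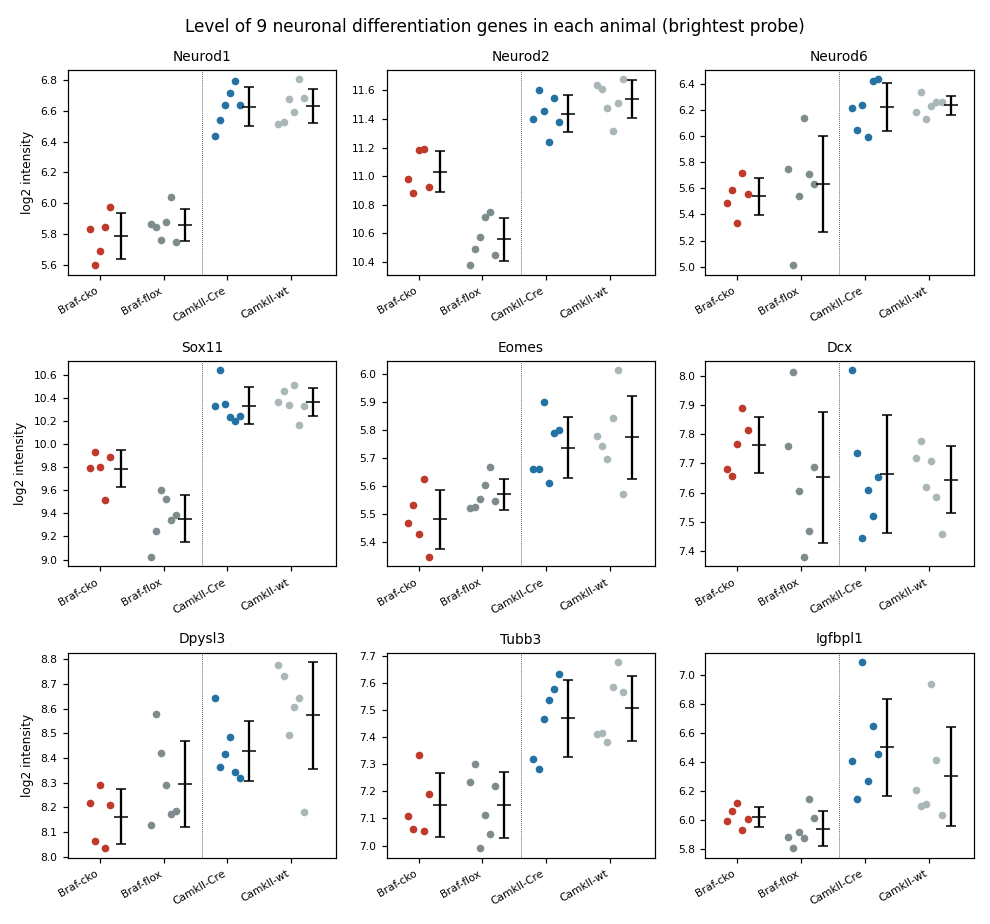
Log2 normalized intensity of 9 genes at their brightest probe, by group. Each point is an animal and the black bar beside it is the mean ± SD; the dotted line separates the Braf experiment from the Cre experiment, whose array medians differ. For Neurod2, the 5 Braf-cko mice (10.89 to 11.19) lie above all 6 Braf-flox mice (10.38 to 10.75), while CamkII-Cre and CamkII-wt mice overlap.

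The other NeuroD genes did not pass. Neurod1 (ILMN_1228141), the factor that drives the survival and maturation of new granule cells, read 5.83, 5.60, 5.69, 5.85 and 5.97 in Braf-cko mice 1 to 5, and 5.75, 5.86 and 6.04 at the lowest, the median and the highest in Braf-flox mice. The groups overlapped, with a log2 change of -0.07 (95% interval -0.24 to 0.10, adjusted p = 0.82, limma). In CamkII-Cre mice the change was -0.01 (-0.15 to 0.14, adjusted p = 1.00). Neurod6 (ILMN_2708982), a factor of mature pyramidal neurons, lay below the filter in the Braf experiment. It read 5.33 to 5.72 in Braf-cko and 5.01 to 6.14 in Braf-flox mice, so the control animals spread more widely around the Braf-cko mice, and the change was -0.09 (two-sided exact permutation p = 0.617). In CamkII-Cre mice its change was -0.01 (95% interval -0.17 to 0.16), made up of 0.13 on the first set of arrays and -0.15 on the second.

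Sox11, a SoxC factor that acts upstream of doublecortin in newborn neurons, had higher means in Braf-cko mice at its 4 probes, and none of the 3 tested probes passed. The brightest (ILMN_1235647) read 9.79, 9.93, 9.80, 9.52 and 9.89 in Braf-cko mice 1 to 5, and 9.02, 9.36 and 9.61 at the lowest, the median and the highest in Braf-flox mice. Braf-cko mouse 4 lay within the range of the controls and the other 4 lay above it. The means were 9.79 ± 0.16 (SD, n = 5) and 9.35 ± 0.21 (SD, n = 6), a log2 change of 0.43 (standard error 0.10, 95% interval 0.21 to 0.65, adjusted p = 0.0982, limma). The exact permutation test of this probe alone gave p = 0.0108 (two-sided), without adjustment. One fit of all 4 groups, which shares the estimate of the spread, put this probe past the threshold (adjusted p = 0.0199).

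The second Sox11 probe (ILMN_2616196) read 7.47, 7.32, 7.26, 6.90 and 7.37 in Braf-cko mice 1 to 5, and 6.67, 6.91 and 7.15 at the lowest, the median and the highest in Braf-flox mice. Here too Braf-cko mouse 4 was the lowest of its group and the only one inside the control range. The change was 0.36 (95% interval 0.13 to 0.58, adjusted p = 0.2, limma). ILMN_2740231 read 7.24, 7.23, 6.68, 6.55 and 6.92 in Braf-cko mice 1 to 5, and 6.29, 6.59 and 6.68 at the lowest, the median and the highest in Braf-flox mice. Its change was 0.39 (0.12 to 0.66, adjusted p = 0.24). The dimmest (ILMN_2643394) lay below the filter, at 4.84 to 5.75 in Braf-cko and 5.01 to 5.32 in Braf-flox mice, with a change of 0.15 (two-sided exact permutation p = 0.318). The 3 tested probes read 1 gene and are no independent evidence of each other. Across the 11 mice of the Braf experiment, deviations from the group means of the brightest probe went with those of ILMN_2616196 (r = 0.79) and ILMN_2740231 (r = 0.70).

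**Figure D2:**
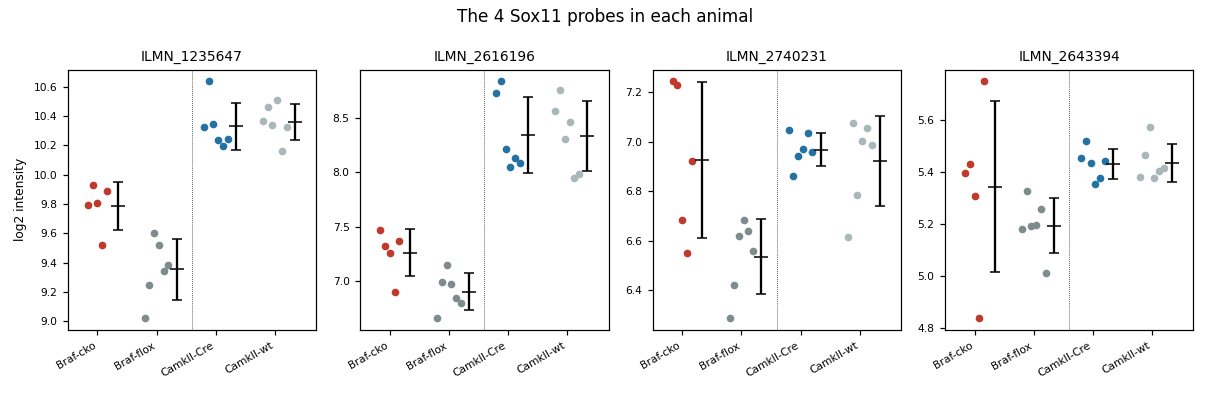
Log2 normalized intensity of the 4 Sox11 probes, from the brightest on the left to the dimmest on the right, by group. Points are animals and black bars the mean ± SD. In the left panel 4 of the 5 Braf-cko mice lie above the highest Braf-flox mouse (9.61), and Braf-cko mouse 4 (9.52) does not.

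In CamkII-Cre mice the brightest Sox11 probe read 10.20, 10.28 and 10.64 at the lowest, the median and the highest, and 10.16, 10.35 and 10.51 in CamkII-wt mice, a log2 change of -0.03 (95% interval -0.20 to 0.14). ILMN_2616196 changed by 0.0044 (-0.35 to 0.36) and ILMN_2740231 by 0.05 (-0.11 to 0.21), with adjusted p = 1.00 for all 3. The change in Braf-cko minus that in CamkII-Cre mice was 0.46 (standard error 0.13, adjusted p = 0.262), 0.35 (adjusted p = 0.877) and 0.34 (adjusted p = 0.687) at the 3 probes, none past the threshold.

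The second Sox11 probe was spread widely in the Cre experiment, in both genotypes. The animals labelled 1 to 3 averaged 8.59 in CamkII-Cre and 8.54 in CamkII-wt mice, and those labelled 4 to 6 averaged 8.09 and 8.13. The values of an animal's 2 arrays went together (within-group r = 0.92 over 12 animals). The median linear intensity of the second arrays split by animal number as well, at 64.98 to 66.8 for animals 1 to 3 and 68.02 to 69.1 for animals 4 to 6, over both genotypes, while the first arrays overlapped, and its part in this spread was not tested. Tubb3 ran the other way, at 7.36 and 7.40 in animals 1 to 3 of the CamkII-Cre and CamkII-wt groups, and 7.58 and 7.61 in animals 4 to 6. The labels do not say what the animal numbers stand for. With the animal numbers 1 to 3 and 4 to 6 as blocks, none of the 11 tested member probes passed in the Cre comparison. ILMN_2740231 differed between the sets of arrays, with a mean of 7.39 on the first and 6.50 on the second over the same 12 animals.

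Eomes, the factor of intermediate progenitors, is carried by few cells of the adult hippocampus, and its 3 probes lay below the filter in both experiments. Their changes in Braf-cko mice were -0.09 (ILMN_1251446), -0.09 (ILMN_2452600) and 0.08 (ILMN_2570496), with overlapping groups (exact permutation tests, two-sided, p = 0.11, 0.115 and 0.439). In CamkII-Cre mice they were -0.04, -0.01 and -0.03 (exact permutation tests, two-sided, p = 0.639, 0.879 and 0.753). The probes read 5.03 to 5.67 over the mice of the Braf experiment.

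Dcx, the microtubule-binding protein of migrating young neurons, did not pass in either comparison. Its brightest probe (ILMN_1228206) read 7.68, 7.66, 7.77, 7.89 and 7.82 in Braf-cko mice 1 to 5, and 7.38, 7.65 and 8.01 at the lowest, the median and the highest in Braf-flox mice. The Braf-cko mice lay inside the range of the controls, which spread more widely (SD 0.10, n = 5, against 0.23, n = 6). The change was 0.11 (95% interval -0.11 to 0.33, adjusted p = 0.77, limma), and in CamkII-Cre mice 0.02 (-0.17 to 0.21). The other 3 Dcx probes lay below the filter in the Braf experiment and changed there by -0.03, 0.04 and 0.09 (exact permutation tests, two-sided, p = 0.667, 0.693 and 0.162).

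Among the genes of the growing cytoskeleton, Dpysl3 (ILMN_1250075), a collapsin response mediator of growth cones, read 8.22, 8.06, 8.29, 8.03 and 8.21 in Braf-cko mice 1 to 5, and 8.13, 8.24 and 8.58 at the lowest, the median and the highest in Braf-flox mice. The groups overlapped, with a change of -0.13 (95% interval -0.32 to 0.06, adjusted p = 0.65, limma). In CamkII-Cre mice Dpysl3 changed by -0.15 (-0.34 to 0.05, adjusted p = 1.00), and the difference between the 2 changes was 0.01 (-0.26 to 0.28). Tubb3 (ILMN_2466818), the neuronal beta-tubulin, averaged 7.15 ± 0.12 in both Braf-cko (SD, n = 5) and Braf-flox mice (SD, n = 6), a change of -0.00066 (-0.17 to 0.17), and changed by -0.04 (-0.19 to 0.12) in CamkII-Cre mice. A change of Tubb3 beyond 0.17 on the log2 scale in Braf-cko mice lay outside this interval.

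Igfbpl1, a secreted protein with homology to insulin-like growth factor binding proteins that marks young neurons, did not pass. Its brightest probe (ILMN_2776554) read 5.93 to 6.12 in Braf-cko and 5.80 to 6.14 in Braf-flox mice, a change of 0.08 (95% interval -0.07 to 0.24, adjusted p = 0.75, limma), and the other tested probe changed by 0.05 (-0.12 to 0.22). In the Cre experiment the brightest probe ran from 6.14 to 7.09 in CamkII-Cre and from 6.03 to 6.94 in CamkII-wt mice, with a change of 0.20 (-0.15 to 0.56). The values of an animal's 2 arrays went together (within-group r = 0.89 over 12 animals).

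**Figure D3:**
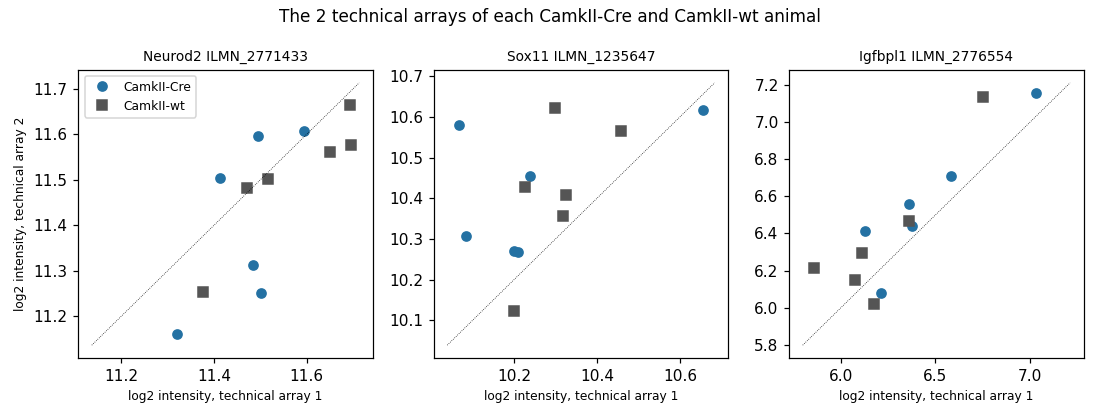
Log2 normalized intensity on technical array 2 against technical array 1 for Neurod2, the brightest Sox11 probe and the brightest Igfbpl1 probe in 6 CamkII-Cre and 6 CamkII-wt mice. Each point is an animal and the dotted line marks equal values. The within-group r of the 2 arrays was 0.89 for Igfbpl1, 0.73 for Neurod2 and 0.49 for Sox11. It does not measure the distance from the line. The means of the first and second arrays were 6.34 and 6.47 for Igfbpl1, 11.52 and 11.46 for Neurod2, and 10.27 and 10.42 for Sox11.

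Counted over all members, 10 of the 19 probes, for 7 of the 9 genes, passed the filter in the Braf comparison. Of these, 1 passed the test (Neurod2, higher), against 0.532% of all tested probes, and 0.159% counting higher ones alone. At an unadjusted p under 0.05 there were 4 of 10, all higher (Neurod2 and the 3 Sox11 probes, so 2 genes), against 10.8% of all probes, and 5.37% counting higher ones. Groups without overlap were found for 1 of 10, against 1.72% of all probes, and 0.691% counting higher ones. Of the 10, 7 had a higher mean in Braf-cko mice, against 51% of all probes. These 7 probes were of 4 of the 7 tested genes. The median log2 change of the 10 was 0.10, against 0.0025 over all probes. In the Cre comparison 11 probes of 8 genes were tested. None passed (limma), against 0.00858% of all probes, and none reached an unadjusted p under 0.05, against 1.63%, while the methods' t-test also gave 0 at either threshold. Groups without overlap were found for 0 of 11, against 0.0815%, and 4 of 11 had a higher mean in CamkII-Cre mice, against 49.7%. The median change was -0.01, against -0.0004 over all probes. In the difference between the comparisons 1 of 11 passed, Neurod2, against 0.184% of all probes. At an unadjusted p under 0.05 there were 3 of 11, against 6.66%. These were Neurod2 and the Sox11 probes ILMN_1235647 and ILMN_2740231, so 2 genes.

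**Figure D4:**
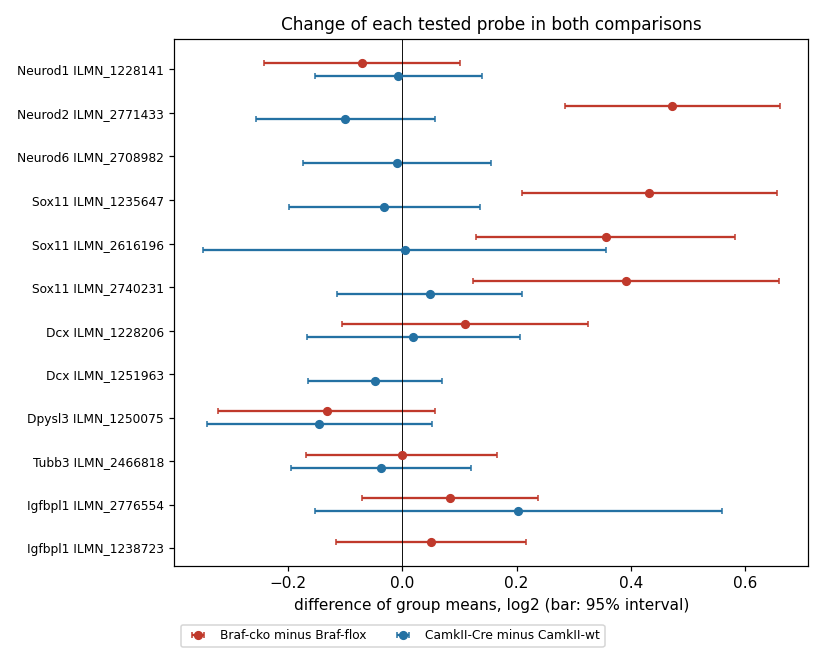
Difference of group means on the log2 scale for each tested probe, with the 95% interval of limma's fit, in Braf-cko minus Braf-flox mice (red, upper) and CamkII-Cre minus CamkII-wt mice (blue, lower). A probe below the filter in an experiment has no point for it. The red intervals of Neurod2 (0.28 to 0.66) and of the 3 Sox11 probes lie above 0, and of these 4 probes Neurod2 alone passed after adjustment over all probes.

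Other genes of granule cell development and of neurons were given by lists. Over all tested probes of the Braf comparison, 0.532% passed and 10.8% had an unadjusted p under 0.05 (limma). A higher mean in Braf-cko mice was found for 51% of them, and their median change was 0.0025. Of 14 tested transcription factors of neurogenesis, 0 passed in limma's fit (1 at an unadjusted p under 0.05), 6 had a higher and 8 a lower mean in Braf-cko mice, and the median change was -0.04. Myt1, a zinc finger factor of neuronal differentiation, read 8.19 ± 0.19 in Braf-cko (SD, n = 5) and 7.90 ± 0.11 in Braf-flox mice (SD, n = 6), a change of 0.29 (adjusted p = 0.23, limma). Of 10 partners and inhibitors of bHLH factors, 0 passed and 0 had an unadjusted p under 0.05 (median -0.01). Id1, which sequesters E proteins, changed by -0.16 (adjusted p = 0.591) and Hey2, a Notch target, by 0.16 (adjusted p = 0.63). Hey1, on the same list, changed by -0.0090 (adjusted p = 0.986, limma). Of 9 stem and precursor genes, 0 passed and 3 had an unadjusted p under 0.05 (median 5.4e-05). Of the 9, 5 means were higher and 4 lower in Braf-cko mice. The Notch targets Hes1 and Hes5 changed by 0.24 (adjusted p = 0.408) and 0.26 (adjusted p = 0.46), and Hopx, a marker of quiescent stem cells, by -0.21 (adjusted p = 0.46). Notch1 itself, on the same list, changed by 5.4e-05. Of 12 genes of dividing cells, 4 were bright enough to test, 0 passed and 1 had an unadjusted p under 0.05. This was Mcm5, a part of the replicative helicase, with a change of -0.20 (adjusted p = 0.264).

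Of 24 further growth and microtubule genes of young neurons, 0 passed and 5 had an unadjusted p under 0.05, with 14 means higher and 10 lower in Braf-cko mice (median 0.03). The stathmin Stmn3 changed by -0.22 (adjusted p = 0.216) and the RNA-binding protein gene Elavl2 by -0.28 (adjusted p = 0.267). Of the other 3, Dclk1 changed by -0.22 (adjusted p = 0.392), and Dpysl5 and Mex3a ran the other way, by 0.23 (adjusted p = 0.297) and 0.29 (adjusted p = 0.327). Of 6 tested markers of mature granule cells, 0 passed and 4 had an unadjusted p under 0.05, against 10.8% of all tested probes. Calb1, the calcium buffer that granule cells acquire as they mature, read 7.83 ± 0.25 in Braf-cko (SD, n = 5) and 8.36 ± 0.20 in Braf-flox mice (SD, n = 6), a change of -0.53 (adjusted p = 0.0683, limma), and the kinase gene Plk5 changed by 0.55 (adjusted p = 0.0702). These 2 markers ran in opposite directions. In the Cre comparison 0 genes of these lists passed in limma's fit, and 0 reached an unadjusted p under 0.05. Over all tested probes these shares were 0.00858% and 1.63%.

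Markers of other cell types were set beside Neurod2 and Sox11. The summed linear intensity of 4 CA1 pyramidal cell markers was 5380 to 7236 in Braf-cko and 7583 to 9099 in Braf-flox mice. That of 6 interneuron markers was 12073 to 13030 and 13662 to 17645. Both sums were lower in Braf-cko mice without overlap, but the groups overlapped for each of these 10 genes taken alone. A linear sum weighs bright probes most. In the test 0 of the 10 genes passed (2 CA1 and 3 interneuron markers at an unadjusted p under 0.05). Over all tested probes 0.532% passed and 10.8% had such an unadjusted p. Fibcd1 changed by -0.61 (adjusted p = 0.0731, limma) and Mpped1 by -0.31 (adjusted p = 0.371), with a list median of -0.33. The vesicular GABA transporter gene Slc32a1 changed by -0.17 (adjusted p = 0.353) and Pvalb by -0.48 (adjusted p = 0.362), which was the lowest value of the 6 interneuron markers, with a list median of -0.15. The sums of the 10 other cell type lists overlapped between the groups, and those of choroid plexus markers were 386 to 1910 in Braf-cko and 309 to 17029 in Braf-flox mice. In the Cre experiment the CA1 sum was 11216 to 13921 in CamkII-Cre and 11020 to 13704 in CamkII-wt mice. Slc17a7, which mature excitatory neurons share with Neurod2, changed by 0.34 in Braf-cko mice (adjusted p = 0.32). Its change in CamkII-Cre mice was 0.18, which did not pass, while Neurod2 changed by -0.10 there. In Braf-cko mice Slc17a7 was the highest of 3 tested markers of forebrain excitatory neurons. Nrgn changed by 0.09 and Camk2a by -0.10 in these mice, with a list median of 0.09. The part of cell composition in the higher Neurod2 level was not tested.

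The genes whose deviations from the group means were most like those of Neurod2 over the 23 animals were Ppp3ca (r = 0.76), the catalytic subunit of calcineurin, Zfp592 (r = 0.75) and the bicarbonate transporter gene Slc4a8 (r = 0.75). The lowest were the purinergic receptor gene P2rx5 (r = -0.79) and Il10rb (r = -0.74). These were picked as the extremes of all named genes tested in both experiments, and the points share arrays and their normalization. Neurod2 and the brightest Sox11 probe did not vary together within groups (r = 0.13 over 23 animals, 0.08 within the Braf experiment).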

How the data were processed

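RNA of 23 mice was hybridized to 36 arrays. The authors processed the arrays in R with beadarray, limma and vsn, with settings and versions that are not given in the sources used here, and deposited a normalized intensity on a linear scale for each probe and array. Array medians point to separate normalizations of the 2 experiments. A second deposited table of signals before normalization holds 72 columns whose names match no sample label, and these were not used. Groups, animal numbers and technical arrays came from the sample labels.

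Intensities were taken to log2 with no offset and averaged per animal. In each comparison the 50% of probes with the higher mean (23316 of 46632) were fitted with limma 3.58.1 in R 4.3.3 (lmFit, eBayes, two-sided), and p-values were adjusted by Benjamini-Hochberg over the probes tested at a threshold of 0.05. A fit of all 4 groups tested the difference between the changes. Intervals cover 95%. An exact permutation test was added for single probes. The fits of a single comparison were tested on simulated data.

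Alternatives were no filter, a 25% filter, quantile normalization, median centring, 16 added before log2, and trended and robust eBayes. Further ones were replicate blocks, Student's t-test, a shared fit of all 4 groups, single array sets, the animal as a random block (statmod 1.5.0), blocks of animal numbers, and each animal left out. In the platform annotation, 29976 probes had 1 gene symbol, 10 had several and 16646 had no symbol.

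Members are named at every probe. Of each list, genes past the threshold are named, otherwise the 1 or 2 with the smallest unadjusted p, and for likeness the 3 highest and 2 lowest correlations. The brightest tested probe stands for a listed gene. Hopx, Hey1, Notch1, Dclk1, Dpysl5, Mex3a, Nrgn, Camk2a, Braf and Prox1 were named outside this rule, after their values were seen. Members and lists were chosen with earlier results of these data known.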

Additional observations from a re-analysis of the deposited data

Results flagged for a closer look

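The change of Neurod2 in Braf-cko mice minus its change in CamkII-Cre mice was 0.57 on the log2 scale, and limma's test of this difference passed the threshold (adjusted p = 0.0289). The experiments differ in age, background and array medians.

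Single animals stood far from the rest of their group in 5 of the 76 groups of animals and probes, where chance gives about 1 in 20. The brightest Sox11 probe read 10.64 in CamkII-Cre mouse 2, and 10.20 to 10.35 in the other 5 CamkII-Cre mice. The other 4 were at dim probes that were not tested: Dcx ILMN_1236627 at 5.44 in CamkII-wt mouse 6 (others 5.58 to 5.64), Dcx ILMN_1256251 at 5.06 in Braf-cko mouse 2 (others 5.25 to 5.33), Eomes ILMN_2452600 at 5.06 in Braf-cko mouse 4 (others 5.24 to 5.29) and Igfbpl1 ILMN_2576149 at 5.74 in CamkII-wt mouse 4 (others 5.38 to 5.50).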

How the results depend on the processing

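The count of 1 member probe past the threshold in the Braf comparison became 0 with the replicate number as a block (Neurod2 change 0.45, adjusted p = 0.0931). It became 0 with Student's t-test (Neurod2 adjusted p = 0.113), with 4 of 10 members and 10.5% of all probes at its unadjusted threshold. The count became 2 in one fit of all 4 groups (Neurod2 and Sox11). Over all probes these settings called 58, 19 and 333, against 124. It was 0 to 1 with single animals left out (69 to 114 over all probes), and 0 to 1 for the difference between the comparisons (31 to 60, against 43). It stayed at 1 in the Braf comparison under the other 7 settings, and at 1 for the difference under all 7 settings run. The Cre comparison kept 0 member probes throughout, leaving out animals included (0 to 0), with 1 to 6 calls over all probes, against 2. Same-numbered animals correlated at -0.14 to 0.13 in the Braf and -0.24 to 0.59 in the Cre experiment, and 1 of 5 and 2 of 6 correlated best with their own number, so the numbers were not taken as pairs.

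Changes near 0 turned in direction without passing. With replicate blocks Tubb3 was at 0.013 in Braf-cko mice and the Dpysl3 difference at -0.0096. In CamkII-Cre mice the first array set gave 0.025 for Neurod1 and 0.13 for Neurod6, and the second gave -0.082 for Dcx and -0.054 for Sox11 ILMN_2616196. With single animals left out, Tubb3 ran from -0.047 to 0.030 in Braf-cko mice, and in CamkII-Cre mice Neurod1 from -0.040 to 0.031, Dcx from -0.052 to 0.063, Neurod6 from -0.051 to 0.038, Tubb3 from -0.070 to 0.00056, and Sox11 from -0.094 to 0.088 (ILMN_2616196) and -0.013 to 0.079 (ILMN_2740231). The differences ran from -0.029 to 0.091 for Dpysl3, -0.0099 to 0.069 for Tubb3 and -0.21 to 0.017 for Neurod6. In the Braf comparison quantile normalization put 1 gene of the mature granule cell list past the threshold, against 0. The causes were not tested. Dim members have no limit from background signal here other than the filter.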
